A study of Mus musculus with 16 samples.

Results

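The response to proteasome inhibition was measured in mouse embryonic fibroblasts in which the transcription factor gene Atf5 is knocked down. It is the comparison of the 4 arrays of knockdown cells with MG132 against the 4 arrays of knockdown cells without it, 8 of the 16 arrays of the series. Group and replicate number come from each sample's title. The knockdown cells stably express a short hairpin RNA against Atf5. They were kept for 8 h in 1 µM MG132, or in the DMSO vehicle, which the titles call untreated. The other 8 arrays are of wild type cells with a scramble hairpin, in the same vehicle and MG132 groups of 4, and they served here for the common estimate of the spread and for the test of where the knockdown response differed. The labels do not say how many lines or clones of either kind were used, nor that the plates stem from separate cultures or days. The p-values therefore measure the spread between these plates, which may be technical. All values are deposited log2 probe set levels, 1 probe set per gene, over 19938 genes.

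MG132 is a peptide aldehyde that blocks the proteolytic sites of the proteasome, the barrel-shaped protease that degrades ubiquitin-tagged proteins. Cells in which the proteasome is blocked accumulate misfolded and short-lived proteins, and several transcription programmes are known to answer this: ATF4 and CHOP of the integrated stress response, HSF1 for cytosolic chaperones, NRF2 for antioxidant genes, NRF1 (Nfe2l1) for proteasome subunits, and the unfolded protein response of the endoplasmic reticulum. ATF5 is a bZIP factor of the ATF4 family that is itself translated preferentially under such stress.

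Atf5 was read first. Its probe set gave 8.32, 8.39, 8.28 and 8.41 with vehicle and 8.45, 8.43, 8.45 and 8.49 with MG132. Each MG132 array lay above each vehicle array, but by little: the change was 0.11 ± 0.05 on the log2 scale (± is the limma standard error throughout) and did not pass (limma adjusted p = 0.134, p = 0.0286 in an exact permutation test, two-sided, where 4 and 4 arrays allow none smaller). It passed with quantile normalization again (0.22), with centring on the named genes (0.16) and with array weights (0.11). Control arrays read 8.68, 8.51, 8.46 and 8.62 with vehicle and 8.75, 8.72, 8.68 and 8.91 with MG132, so with vehicle and with MG132 alike no knockdown array reached a control array (exact permutation p = 0.0286 each), by a log2 difference of -0.22 and -0.31. The knockdown at the level of this probe set was thus small in size, and where on the transcript the probe set and the hairpin lie was not given.

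The labelled cell type was checked on 12 fibroblast markers. With vehicle, Col1a1, Col1a2 and Pdgfrb had mean levels of 12.24, 11.79 and 10.76, whereas Fap and Lum had 5.03 and 4.69, readings too low to show that these 2 were expressed. The mean level of the 12 markers was 9.94 to 9.98 with vehicle and 9.77 to 9.84 with MG132, from 4.77 for Lum to 14.13 for Vim. Of these markers 3 rose and 5 fell with MG132, which held under 3 other scalings of the arrays for 1 and 5. Over all genes 16.4% rose and 24.3% fell. Among the called markers were Col1a1 (-0.57 ± 0.04), Col1a2 (-0.72 ± 0.05) and Pdgfra (0.73 ± 0.05). Lum (0.16 ± 0.06), too low to show expression, counted as a rise but lost its call with centring on the median of every probe set. It also lost the call without vehicle array 2 or 4, and without MG132 array 2 or 4. Vim (-0.04 ± 0.03), Thy1 (-0.06 ± 0.05), Fap (-0.01 ± 0.06) and Dcn (-0.05 ± 0.06) did not pass. Of 56 markers of 7 other cell types, 9 rose and 4 fell, which held under 3 other scalings of the arrays for 3 and 1. Macrophage markers had a mean level of 6.72 to 6.91 with vehicle and 6.88 to 6.96 with MG132, endothelial markers 6.83 to 7.04 with vehicle and 7.01 to 7.06 with MG132, epithelial markers 7.52 to 7.63 with vehicle and 7.54 to 7.69 with MG132 and smooth muscle markers 9 to 9.14 with vehicle and 8.98 to 9.05 with MG132, the last with Acta2 at 13.16. Skeletal muscle markers lay at 7.10 to 7.27 with vehicle and 7.18 to 7.26 with MG132, adipocyte markers at 6.88 to 7.09 with vehicle and 7.05 to 7.10 with MG132 and neuronal markers at 7.24 to 7.33 with vehicle and 7.42 to 7.48 with MG132, where Tubb3 rose by 0.50 ± 0.09. Log2 array levels have no zero, so no marker is called absent, and the part of other cells in the results was not tested. In bulk RNA, fewer cells of a type and less RNA per cell cannot be told apart. Within the knockdown groups, vehicle array 1 stood apart along the main axis of within-group variation (score -12.993, against 1.475 to 8.192 for the other vehicle arrays), with MG132 array 2 next (-4.269, against -1.628 to 3.007). It held the highest mean of 6 of the 7 other marker lists in its group, or shared it. Without vehicle array 1, 15 of these 56 markers rose and 3 fell, beside 4504 and 4892 of all 19938 genes, so the count of rises grew over all genes as well.

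Of 19938 genes, 3276 were higher (16.4%) and 4848 were lower (24.3%) with MG132 in knockdown cells (limma, Benjamini-Hochberg adjusted p under 0.05). In 15.1% of genes all 4 MG132 arrays lay above all 4 vehicle arrays, and in 23.4% all lay below. Most changes were small: 213 genes rose and 669 fell by 1.5-fold or more, and 49 and 85 by 2-fold or more. The balance of rises and falls depends on how the arrays are scaled to each other. Quantile normalization again gave 4100 higher and 4131 lower, centring on the median of the named genes gave 7140 and 3800, and centring on the median of every probe set gave 1833 and 5795, with the median of all genes shifted by -0.02, 0.06 and -0.06. Under all 4 scalings 1820 genes (9.13%) were higher and 3402 (17.1%) were lower, and no gene called with the deposited scaling was called in the opposite direction under another. All 882 calls of 1.5-fold or more are among these. List counts below are for the deposited scaling, and the count held under all 4 follows where it is smaller. They are to be read against all genes, 16.4% higher and 24.3% lower, or 9.13% and 17.1% under all 4 scalings. The median log2 fold change of all genes was 0.03, against which the medians of the lists are to be read.

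**Figure D1:**
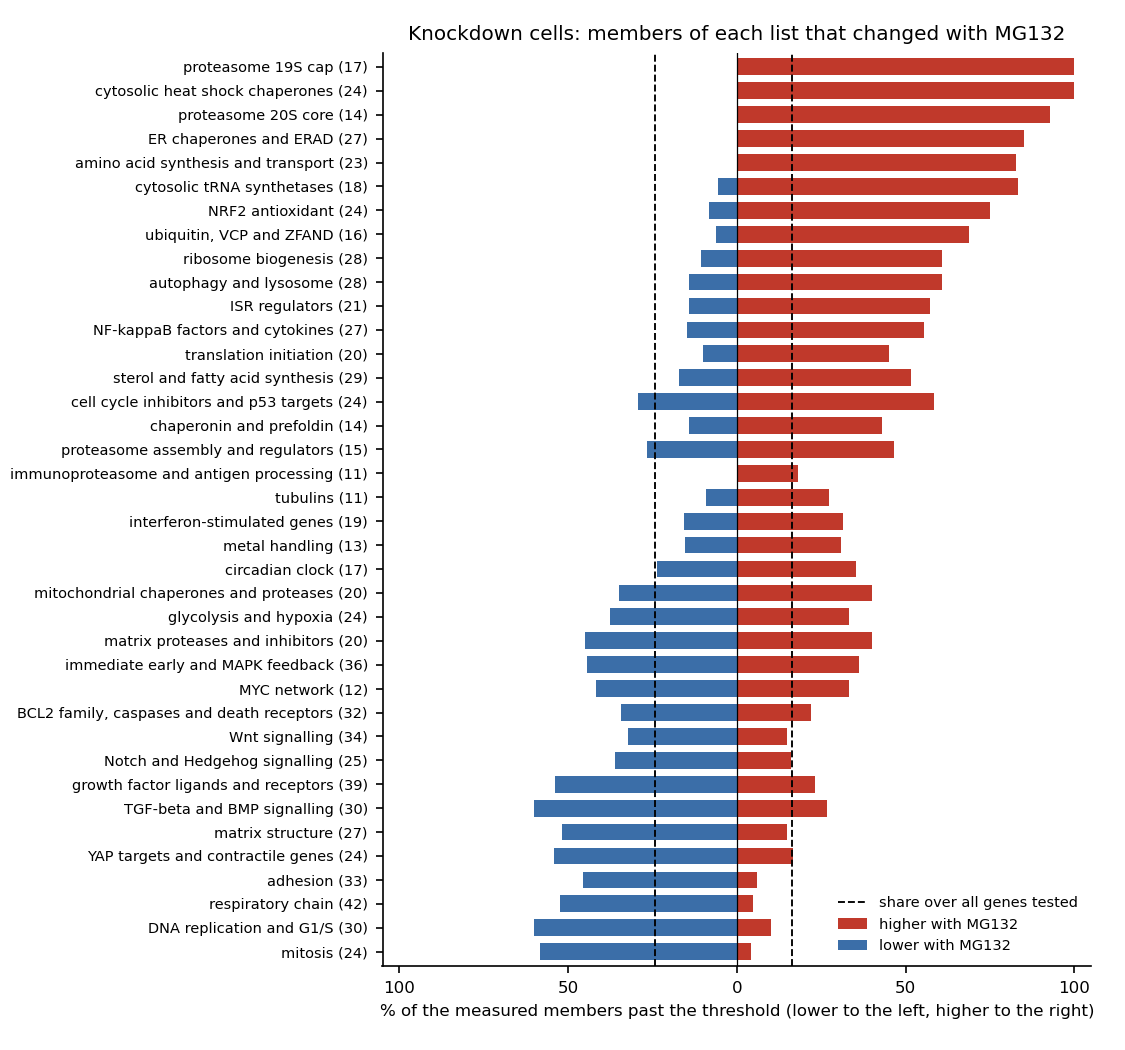
For each of 38 gene lists, the bars give the share of measured members (number in parentheses) that were higher (red, right) or lower (blue, left) with MG132 in knockdown cells, on axes in percent, with dashed lines at the shares over all genes tested, 16.4% and 24.3%. The 19S proteasome cap and the cytosolic heat shock chaperones are at the top with all members higher, and mitosis and DNA replication are at the bottom.

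Effector genes of the integrated stress response rose strongly, and Atf4 itself rose by a small step. Atf3, a factor induced with CHOP, read 9.98, 10.01, 10.05 and 10.13 with vehicle and 12.22, 12.22, 12.29 and 12.21 with MG132. The MG132 arrays were all far above the vehicle arrays, a 4.57-fold rise (2.19 ± 0.04, limma adjusted p = 1.81e-16). Ppp1r15a (GADD34), which brings back translation by directing dephosphorylation of eIF2 alpha, read 9.93, 9.92, 10.04 and 10.04 with vehicle and 12.06, 12.04, 12.11 and 11.97 with MG132, 4.18-fold higher (2.06 ± 0.04). Ddit3, which encodes CHOP, read 9.76, 9.78, 9.71 and 9.77 with vehicle and 11.52, 11.62, 11.60 and 11.52 with MG132, 3.51-fold higher (1.81 ± 0.04). For these 3 genes the groups were separated by at least 1.74 log2 units. Trib3, a pseudokinase that feeds back on ATF4, rose by 1.40 ± 0.04 (9.75 to 9.90 with vehicle, 11.18 to 11.27 with MG132), the leucine-sensing Sesn2 rose by 1.08 ± 0.04, the glutathione-degrading Chac1 by 0.95 ± 0.04 and the stress factor Nupr1 by 0.67 ± 0.03. Atf4 lay at 11.35 to 11.41 with vehicle and 11.70 to 11.76 with MG132, also without overlap, a rise of 0.36 ± 0.03. ATF4 is known to be controlled mostly at translation. Of 21 regulators in the list 12 rose and 3 fell (12 and 1 under all scalings), with a median of 0.41 (control cells 0.44). Ppp1r15b, the constitutive partner of Ppp1r15a, was the member that fell under all scalings (-0.24 ± 0.03, with -0.10 on its other probe set).

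Promoters of induced members are shown because the CARE element, the composite site to which ATF4 and C/EBP factors bind, has a spelling that can be searched. Windows of 250 bases before to 50 after the annotated start were taken from RefSeq's GRCm38.p6 table and searched on both strands for TGATGNAA. It was found in 7 of 20 stress regulators with a window (35.0%) and 4 of 17 amino acid genes (23.5%), against 3.62% of 15614 tested genes. The windows are chr1:191183284-191183583 for Atf3, chr2:152344011-152344310 for Trib3 and chr3:50443564-50443863 for Slc7a11, all on the minus strand and printed 5′ to 3′ along the gene, with the matches in capitals.
Atf3: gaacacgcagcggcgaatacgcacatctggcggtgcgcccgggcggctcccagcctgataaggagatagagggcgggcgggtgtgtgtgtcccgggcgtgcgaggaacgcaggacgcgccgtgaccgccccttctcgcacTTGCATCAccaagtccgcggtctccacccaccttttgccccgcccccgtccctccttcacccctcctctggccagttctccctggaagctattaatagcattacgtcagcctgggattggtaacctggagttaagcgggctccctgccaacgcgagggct
Trib3: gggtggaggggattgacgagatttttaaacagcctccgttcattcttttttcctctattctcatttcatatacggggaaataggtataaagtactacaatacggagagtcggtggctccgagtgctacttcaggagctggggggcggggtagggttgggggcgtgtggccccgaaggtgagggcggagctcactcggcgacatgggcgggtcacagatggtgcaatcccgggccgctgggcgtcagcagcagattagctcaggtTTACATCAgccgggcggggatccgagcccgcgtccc
Slc7a11: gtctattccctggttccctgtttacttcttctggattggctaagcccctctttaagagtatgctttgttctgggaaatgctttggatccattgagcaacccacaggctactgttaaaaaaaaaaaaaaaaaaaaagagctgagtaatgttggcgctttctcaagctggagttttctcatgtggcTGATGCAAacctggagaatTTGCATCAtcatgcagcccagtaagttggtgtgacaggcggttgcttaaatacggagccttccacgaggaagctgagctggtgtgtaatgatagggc
The match begins 110 bases before the start in Atf3, at base 15 after it in Trib3, and 66 and 47 bases before it in Slc7a11. A match is a description of letters, not of a bound site, and 5 of the 12 risen stress regulators with a window had it.

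Transporters and synthesis enzymes of amino acids rose as well. Slc7a11, the cystine-glutamate exchanger subunit whose promoter is printed above, had the largest rise of all genes that the rule names. Its arrays read 9.37, 9.41, 9.31 and 9.49 with vehicle and 11.82, 11.77, 11.76 and 11.82 with MG132, with no overlap, 5.27-fold higher (2.40 ± 0.04, limma adjusted p = 1.81e-16). The glycine transporter Slc6a9 rose by 1.08 ± 0.03, the neutral amino acid transporters Slc1a4 and Slc1a5 by 1.05 ± 0.04 and 0.59 ± 0.03, and the cationic transporter Slc7a1 by 0.60 ± 0.04. Slc7a3, another cationic transporter, was at -0.01 ± 0.07 and did not pass. Among enzymes, the alanine transaminase Gpt2 rose by 0.67 ± 0.04, the mitochondrial folate enzyme Aldh1l2 by 0.50 ± 0.04, cystathionine gamma-lyase Cth by 0.54 ± 0.05 and the serine synthesis genes Psph and Phgdh by 0.48 ± 0.06 and 0.30 ± 0.04. Asns, asparagine synthetase, a classic ATF4 target, rose by 0.24 ± 0.03, a small step from an already high level (13.24 to 13.30 with vehicle, 13.49 to 13.51 with MG132). The third serine gene, Psat1, was at 0.08 ± 0.03 and did not pass. Of 23 members 19 rose and 0 fell (limma, 0 at an unadjusted p under 0.05), with a median of 0.33. Cytosolic tRNA synthetases rose in 15 of 18 and fell in 1 (11 and 1 under all scalings), by small steps: Wars 0.56 ± 0.03, Cars 0.54 ± 0.03, Tars 0.45 ± 0.04, and Mars1 -0.17 ± 0.04.

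All 24 cytosolic heat shock chaperones and co-chaperones measured were higher, 22 of them under all scalings, with a median of 0.53. Hspb1, a small heat shock protein that holds unfolding clients, read 11.10, 11.05, 11.07 and 11.10 with vehicle and 12.69, 12.41, 12.45 and 12.38 with MG132. The groups lay over 1 log2 unit apart, a 2.64-fold rise (1.40 ± 0.05, limma adjusted p = 5.76e-12). Hsph1, the HSP110 exchange factor, rose by 1.06 ± 0.03, Bag3, which links HSP70 to autophagy, by 1.06 ± 0.05, Hsf2, an inducible heat shock factor, by 0.85 ± 0.05, Dnajb1, the HSP40 partner of HSP70, by 0.82 ± 0.03 and Hspb8 by 0.69 ± 0.05. The inducible HSP90 gene Hsp90aa1 rose by 0.34 ± 0.03, and the constitutive HSP70 gene Hspa8, already at 13.91 to 13.95 with vehicle, by 0.13 ± 0.03 (0.14 and 0.22 on its other probe sets). Hspa1a, the inducible HSP70, gave unequal readings. Its own probe set read 8.12, 8.17, 8.10 and 8.07 with vehicle and 9.12, 8.96, 8.92 and 8.82 with MG132, a rise of 0.84 ± 0.06. The probe set annotated to Hspa1a and Hspa1b together read 10.32, 10.24, 10.24 and 10.25 with vehicle and 12.59, 12.56, 12.54 and 12.53 with MG132, a rise of 2.29. Both readings were without overlap but differed in size, and since the genes are near-identical copies, the level of either alone is uncertain. The heat shock element, at least 3 alternating units of NGAAN and NTTCN, is the site of HSF1. It occurred in 3 of 20 chaperone promoters (15%), against 0.564% of all, and is shown for Hsph1 (chr5:149636287-149636586, GRCm38.p6, minus strand), where it begins at base 36 after the start.
Hsph1: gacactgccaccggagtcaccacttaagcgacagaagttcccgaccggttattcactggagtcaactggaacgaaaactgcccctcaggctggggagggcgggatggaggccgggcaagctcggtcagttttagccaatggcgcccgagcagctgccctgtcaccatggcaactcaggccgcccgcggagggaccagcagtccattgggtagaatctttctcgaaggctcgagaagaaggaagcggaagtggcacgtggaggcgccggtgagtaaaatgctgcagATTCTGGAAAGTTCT
The chaperonin and prefoldin subunits, which fold actin and tubulin, moved little: 6 of 14 rose and 2 fell (1 and 1 under all scalings), led by Cct4 (0.17 ± 0.03), with Pfdn5 at -0.21 ± 0.04.

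Proteasome genes rose together, each by a small amount. All 17 measured subunits of the 19S cap, which recognises ubiquitin and unfolds substrates, were higher (16 under all scalings; median 0.35), and so were 13 of the 14 subunits of the 20S core (11 under all scalings; median 0.24). Psmd11, a scaffold subunit of the cap, read 11.91, 12, 11.99 and 11.99 with vehicle and 12.53, 12.53, 12.58 and 12.56 with MG132. The groups did not overlap, with a rise of 0.58 ± 0.03 (limma adjusted p = 9.23e-10). The ubiquitin receptor Psmd4 rose by 0.56 ± 0.03, the ATPases Psmc2 and Psmc6 by 0.48 ± 0.03 and 0.48 ± 0.04, the cap subunit Psmd12 by 0.29 ± 0.03, and the core subunits Psma7 and Psma5 by 0.49 ± 0.03 and 0.38 ± 0.03. Psmb5, whose chymotrypsin-like site is the main target of MG132, was the core subunit that did not pass (13.47, 13.42, 13.43 and 13.43 with vehicle and 13.34, 13.47, 13.46 and 13.34 with MG132, -0.04 ± 0.04), with overlapping arrays. The NRF1 gene Nfe2l1, the known inducer of proteasome genes, rose by 0.37 ± 0.04, and Usp14, the deubiquitinase bound to the cap, by 0.36 ± 0.04. Against them Psmg2, an assembly chaperone, fell by 0.34, and Ngly1, the glycanase that activates NRF1, by 0.31. Of 11 immunoproteasome and antigen processing genes 2 rose (1 under all scalings) and 0 fell (limma, 0 at an unadjusted p under 0.05), near the share of all genes, with Tapbp at 0.23 ± 0.05.

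Ubiquitin, VCP and ZFAND genes rose in 11 of 16 and fell in 1 (11 and 0 under all scalings). Zfand5 and Zfand2a, which bring substrates to the proteasome under stress, rose by 0.83 ± 0.04 and 0.83 ± 0.03, and Ubxn4 and Ufd1, cofactors of the unfoldase VCP, by 0.68 ± 0.04 and 0.64 ± 0.04. Vcp itself rose by 0.22 ± 0.03. In the autophagy and lysosome list 17 of 28 rose and 4 fell (9 and 1 under all scalings). Sqstm1 (p62), the receptor that gathers ubiquitinated cargo, read 12.91, 12.91, 12.92 and 12.92 with vehicle and 13.94, 13.95, 13.99 and 13.95 with MG132, clearly apart, a 2.06-fold rise (1.04 ± 0.03). Gabarapl1, an ATG8 family protein of the autophagosome, rose by 0.78 ± 0.04 and Atg12 by 0.62 ± 0.06, while Neu1, a lysosomal sialidase, fell by 0.36.

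NRF2 antioxidant genes rose in 18 of 24 and fell in 2 (18 and 1 under all scalings), with a median of 0.52. Hmox1, the inducible heme oxygenase, read 11.01, 10.90, 10.88 and 10.96 with vehicle and 13.16, 13.13, 13.11 and 13.08 with MG132. All MG132 arrays were more than 2 log2 units above all vehicle arrays, a 4.54-fold rise (2.18 ± 0.04, limma adjusted p = 1.81e-16). Osgin1, an oxidative stress response gene, rose by 2.11 ± 0.04 (9.18 to 9.28 with vehicle, 11.25 to 11.43 with MG132), the glutathione transferase Gsta4 by 1.54 ± 0.11, sulfiredoxin Srxn1 by 1.27 ± 0.04 and biliverdin reductase Blvrb by 0.92 ± 0.04. Gclc and Gclm, both subunits of the rate-limiting enzyme of glutathione synthesis, rose by 0.69 ± 0.04 and 0.67 ± 0.03, and Txnrd1 by 0.56 ± 0.03. Nqo1, the quinone reductase often used as the marker of NRF2, rose by 0.49 ± 0.05, and the gene of NRF2 itself, Nfe2l2, was at 0.07 ± 0.04 and did not pass. Ugdh, a UDP-glucose dehydrogenase, fell by 0.35. The antioxidant element, searched as TGACNNNGC, occurred in 10 of 19 promoters of the list (52.6%), against 15.2% of all, and in 2 of 11 promoters of the 20S core (18.2%) and 2 of 14 of the 19S cap (14.3%), close to all genes. It is shown for Srxn1, which rose (chr2:152105274-152105573, plus strand, from base 29 after the start), and for Ugdh, which fell (chr5:65435793-65436092, minus strand, from 132 and 94 bases before it), both in GRCm38.p6.
Srxn1: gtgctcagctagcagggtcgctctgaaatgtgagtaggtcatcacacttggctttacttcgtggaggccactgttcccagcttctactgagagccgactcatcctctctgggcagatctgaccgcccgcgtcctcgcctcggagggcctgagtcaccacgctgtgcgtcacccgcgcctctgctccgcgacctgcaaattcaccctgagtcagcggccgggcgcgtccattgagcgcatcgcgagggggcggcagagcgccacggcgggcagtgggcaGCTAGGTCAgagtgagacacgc
Ugdh: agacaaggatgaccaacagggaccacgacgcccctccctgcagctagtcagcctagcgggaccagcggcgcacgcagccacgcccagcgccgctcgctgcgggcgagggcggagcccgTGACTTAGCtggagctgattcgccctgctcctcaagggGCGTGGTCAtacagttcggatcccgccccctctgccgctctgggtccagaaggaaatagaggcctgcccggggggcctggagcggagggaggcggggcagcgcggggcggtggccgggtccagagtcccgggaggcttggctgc
The same letters thus stood in the window of a gene that rose and of one that fell. Of the 13 risen NRF2 list members with a window 7 held the element. Metal handling genes moved less, 4 of 13 higher and 2 lower (2 and 2 under all scalings). Tfrc, the transferrin receptor that takes up iron, fell by 0.80, with 11.89, 11.86, 11.89 and 11.91 with vehicle and 11.10, 11.02, 11.11 and 11.12 with MG132 and no overlap. The metallothioneins Mt1 and Mt2 were at 0.02 ± 0.05 and -0.05 ± 0.05 and did not pass.

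The endoplasmic reticulum list rose in 23 of 27 members with 0 lower (17 higher under all scalings; limma, 0 lower at an unadjusted p under 0.05), with a median of 0.27. Dnajb9 (ERdj4), a co-chaperone of the lumen, rose by 1.13 ± 0.06 and Herpud1, of the degradation complex, by 0.98 ± 0.04. Hspa5 (BiP), the main chaperone of the lumen, read 13.15, 13.16, 13.20 and 13.18 with vehicle and 13.83, 13.89, 13.88 and 13.86 with MG132, apart on all arrays (0.69 ± 0.03, limma adjusted p = 1.68e-11). Ern1, the sensor kinase IRE1, rose by 0.55 ± 0.03 and Xbp1, whose messenger IRE1 splices, by 0.47 ± 0.05. Hyou1, Sdf2l1, Manf and Dnajc3, further factors of the lumen, rose by 0.49 ± 0.04, 0.57 ± 0.04, 0.45 ± 0.04 and 0.46 ± 0.03. The ER stress element, CCAAT followed after 9 bases by CCACG, is the site of ATF6 with NF-Y. It occurred in 9 of 22 promoters of the list (40.9%), against 0.134% of all, and is shown for Hspa5 (chr2:34771840-34772139, GRCm38.p6, plus strand), where it begins 65 bases before the start.
Hspa5: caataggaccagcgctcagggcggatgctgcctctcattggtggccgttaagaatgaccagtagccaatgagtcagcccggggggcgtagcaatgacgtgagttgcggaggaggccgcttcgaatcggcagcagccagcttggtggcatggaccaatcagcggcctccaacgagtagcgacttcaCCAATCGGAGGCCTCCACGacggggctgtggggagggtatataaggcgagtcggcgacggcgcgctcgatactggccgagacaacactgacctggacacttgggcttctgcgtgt
Of the 19 risen members with a window 8 held this element.

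**Figure D2:**
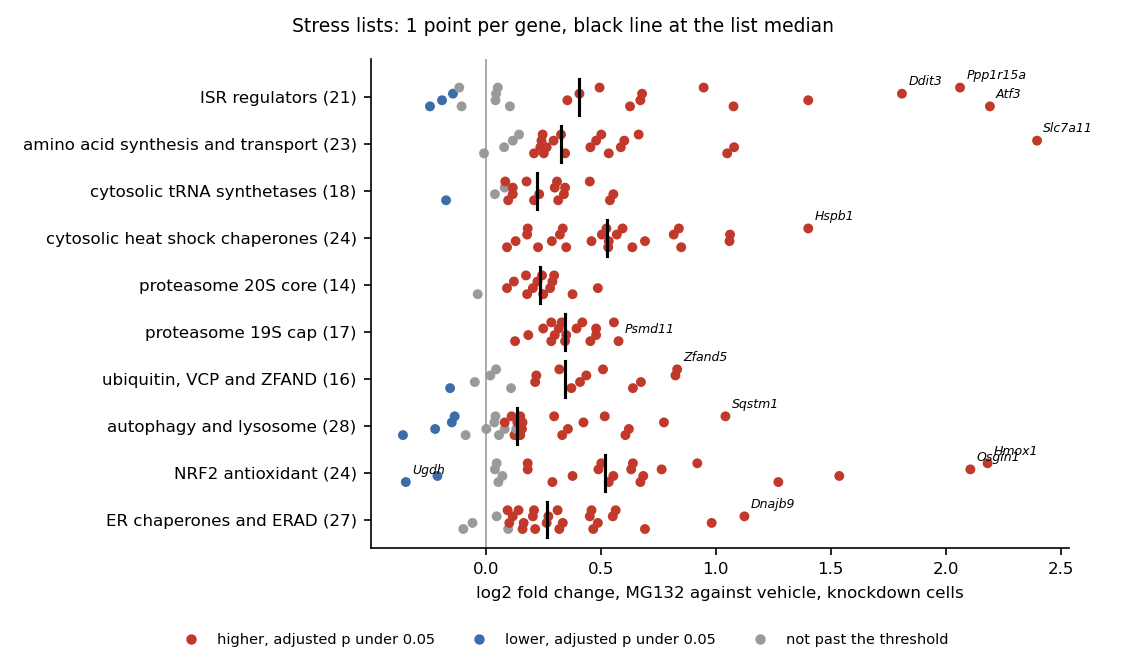
Each point is a gene of 1 of 10 stress lists (number measured in parentheses), placed on the x axis by its log2 fold change with MG132 in knockdown cells, red where higher, blue where lower and grey where the test was not passed, with a black line at the list median. The heat shock and NRF2 lists have the highest medians (0.53 and 0.52), while the proteasome points lie close together below 0.6.

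Of 30 genes of DNA replication and the G1/S step 18 fell and 3 rose (13 and 2 under all scalings; median -0.16, control -0.04), and of 24 mitosis genes 14 fell and 1 rose (9 and 0 under all scalings; median -0.13, control 0.00). Ccne1, cyclin E1, which drives entry into S phase, read 11.76, 11.72, 11.77 and 11.86 with vehicle and 10.85, 10.91, 10.93 and 10.82 with MG132. It fell by 0.90 with no overlap (limma adjusted p = 2.52e-11). Ccnd1, cyclin D1, fell by 0.63, the S phase factor E2f1 by 0.49, the ribonucleotide reductase subunit Rrm2 by 0.45, cyclin B2 (Ccnb2) by 0.38 and the centromeric histone Cenpa by 0.36. In the list of cell cycle inhibitors and p53 targets 14 of 24 rose and 7 fell (13 and 4 under all scalings). Gadd45a, which binds CDK1 and PCNA, read 9.23, 9.27, 9.32 and 9.25 with vehicle and 11.63, 11.64, 11.59 and 11.63 with MG132, 5.12-fold higher with no overlap (2.36 ± 0.03, limma adjusted p = 3.54e-17). Eda2r, a death domain receptor of the TNF receptor family and a p53 target, rose by 1.31 ± 0.09 (7.98 to 8.34 with vehicle, 9.41 to 9.57 with MG132), and Fas, another death receptor, by 0.88 ± 0.05. Pmaip1 (NOXA), a BH3-only protein, rose by 0.33 ± 0.08 with arrays that overlapped (7.24 to 7.77 with vehicle and 7.66 to 7.94 with MG132), Mdm2 by 0.23 ± 0.06 and Plk2 by 0.39 ± 0.03, while Perp, a membrane protein of the p53 pathway, fell by 0.27 and Cdkn1b (p27) by 0.22 (-0.39 on its other probe set).

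Immediate early genes and the feedback genes of MAP kinase signalling moved in both directions: 13 of 36 rose and 16 fell (13 and 10 under all scalings). Egr1, a zinc finger factor induced by ERK signalling, had the largest fall that the rule names. It read 10.33, 10.22, 10.23 and 10.33 with vehicle and 8.03, 8.09, 7.94 and 8.03 with MG132, all MG132 arrays more than 2 units lower, a 4.77-fold fall (-2.26 ± 0.05, limma adjusted p = 4.01e-15). Klf10 fell by 0.72. In the opposite direction, Dusp4, a nuclear phosphatase of ERK and JNK, read 9.23, 9.11, 9.20 and 9.04 with vehicle and 10.56, 10.51, 10.57 and 10.41 with MG132, apart on all arrays (1.37 ± 0.05), and Ier3, Ier5 and Dusp1 rose by 1.19 ± 0.05, 0.67 ± 0.04 and 0.65 ± 0.04. The ERK feedback genes Dusp6, Spry2 and Etv5 fell by 0.40, 0.43 and 0.37. Jun rose by 0.45 ± 0.03 and Klf4 by 0.77 ± 0.05, and Fos was at -0.08 ± 0.06 and did not pass. In the MYC network 4 of 12 rose and 5 fell (4 and 1 under all scalings; median -0.05), with Myc higher by 0.37 ± 0.04, its antagonist Mnt by 0.49 ± 0.03, and the lowest member at -0.23.

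Ligands, receptors and targets of developmental signalling were among the genes that fell. In the TGF-beta and BMP list 18 of 30 fell and 8 rose (14 and 7 under all scalings; median -0.18). Id3, the inhibitor of basic helix-loop-helix factors that BMP signalling induces, read 10.65, 10.53, 10.58 and 10.54 with vehicle and 9.24, 9.17, 9.26 and 9.10 with MG132. The MG132 arrays lay over 1 unit lower, by 1.38 (limma adjusted p = 1.01e-11). Id1 and Id2 fell with it, by 0.87 and 0.84, and so did the inhibitory Smad6, another BMP target, by 0.71. Of the ligands, Bmp4 fell by 0.61 and Tgfb3 by 0.73, and of the receptors Tgfbr2 by 0.44. Grem1, a secreted BMP antagonist, rose by 0.86 ± 0.06 (10.46 to 10.62 with vehicle, 11.30 to 11.49 with MG132), and Fst, which binds activin, fell by 0.79. Among signal transducers, Smad1 and Smad4 rose by 0.41 ± 0.04 and 0.31 ± 0.03, and Smad9 fell by 0.55.

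Wnt genes fell in 11 of 34 (32.4%) and rose in 5 (14.7%), against 24.3% and 16.4% of all genes (10 and 2 under all scalings). There were 4 frizzled receptors among those that fell. Fzd2 read 10.57, 10.50, 10.63 and 10.67 with vehicle and 9.30, 9.33, 9.50 and 9.28 with MG132, down by 1.24 with no overlap (limma adjusted p = 8.58e-12), and the other frizzled receptors Fzd1, Fzd6 and Fzd8 fell by 0.78, 0.59 and 0.59. The co-receptor Lrp5 fell by 0.45, the ligand Wnt5a by 0.51, the Wnt inhibitor Apcdd1 by 0.86 and the nuclear factor Tcf7l2 by 0.48. Axin2, the usual readout of the pathway, rose by 0.26 ± 0.06. Of 25 Notch and Hedgehog genes 9 fell and 4 rose (7 and 2 under all scalings). Gas1, a Hedgehog co-receptor, read 10.60, 10.69, 10.73 and 10.79 with vehicle and 9.45, 9.67, 9.54 and 9.52 with MG132, a fall of 1.16 with no overlap. Lfng, which glycosylates Notch, fell by 1.12 and the Notch target Hes1 by 0.64, while the ligand Jag1 rose by 0.58 ± 0.06.

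Growth factor ligands and receptors fell in 21 of 39 and rose in 9 (18 and 8 under all scalings). Apln, the ligand of the apelin receptor, read 10.73, 10.67, 10.70 and 10.80 with vehicle and 9.34, 9.31, 9.32 and 9.20 with MG132, a 2.7-fold fall (-1.43 ± 0.06) with no overlap. Fgf10, a mesenchymal signal to epithelium, fell by 1.03, Igf1 by 0.86, Pdgfb by 0.80, Pdgfd by 0.73 and Gas6, the ligand of the TAM receptors, by 0.64. Among the ligands that rose, Vegfc, the lymphatic growth factor, read 8.48, 8.64, 8.67 and 8.64 with vehicle and 9.56, 9.62, 9.49 and 9.51 with MG132 and rose by 0.94 ± 0.06, Pdgfc rose by 0.80 ± 0.04, the ERBB ligand Nrg1 by 0.79 ± 0.04 and Vegfa by 0.56 ± 0.03. PDGF receptors parted, with Pdgfra at 0.73 ± 0.05 and Pdgfrb at -0.61 ± 0.05, both called.

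Structural matrix genes fell in 14 of 27 and rose in 4 (11 and 2 under all scalings; median -0.15, control -0.22): the thrombospondins Thbs1 and Thbs2 fell by 0.87 and 0.60 and the cross-linking oxidase Loxl1 by 0.60, whereas Lox rose by 0.39 ± 0.06. Matrix proteases and inhibitors fell in 9 of 20 and rose in 8 (8 and 6). Adamts5, an aggrecan-cleaving protease, read 11.51, 11.43, 11.52 and 11.68 with vehicle and 9.86, 9.84, 9.93 and 9.94 with MG132, a fall of 1.64 with no overlap (limma adjusted p = 1.39e-12), and Timp3, the inhibitor of such proteases, read 11.49, 11.48, 11.52 and 11.55 with vehicle and 12.88, 12.89, 12.93 and 12.84 with MG132, up by 1.38 ± 0.04. The protease and its inhibitor thus moved in opposite directions with no overlap. Both plasminogen activators fell, Plau by 0.98 and Plat by 0.89, and the receptor Plaur rose by 0.51 ± 0.04. In the adhesion list 15 of 33 fell and 2 rose (14 and 0 under all scalings). Amigo2, a leucine-rich repeat adhesion protein, read 9.61, 9.51, 9.59 and 9.61 with vehicle and 7.97, 7.99, 7.96 and 7.86 with MG132 and fell by 1.64 and the giant cadherin Fat4 fell by 1.59. Integrin alpha subunits Itga3 and Itga6 fell by 0.49 and 0.50. YAP targets and contractile genes fell in 13 of 24 and rose in 4 (6 and 2 under all scalings), with Lats2 down by 0.49, Amotl2 by 0.43 and Ccn2, counted with the matrix, by 0.40. Of 11 tubulins 3 rose under all scalings, Tubb3, Tubb2a (0.42 ± 0.04) and Tuba4a (0.41 ± 0.04).

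**Figure D3:**
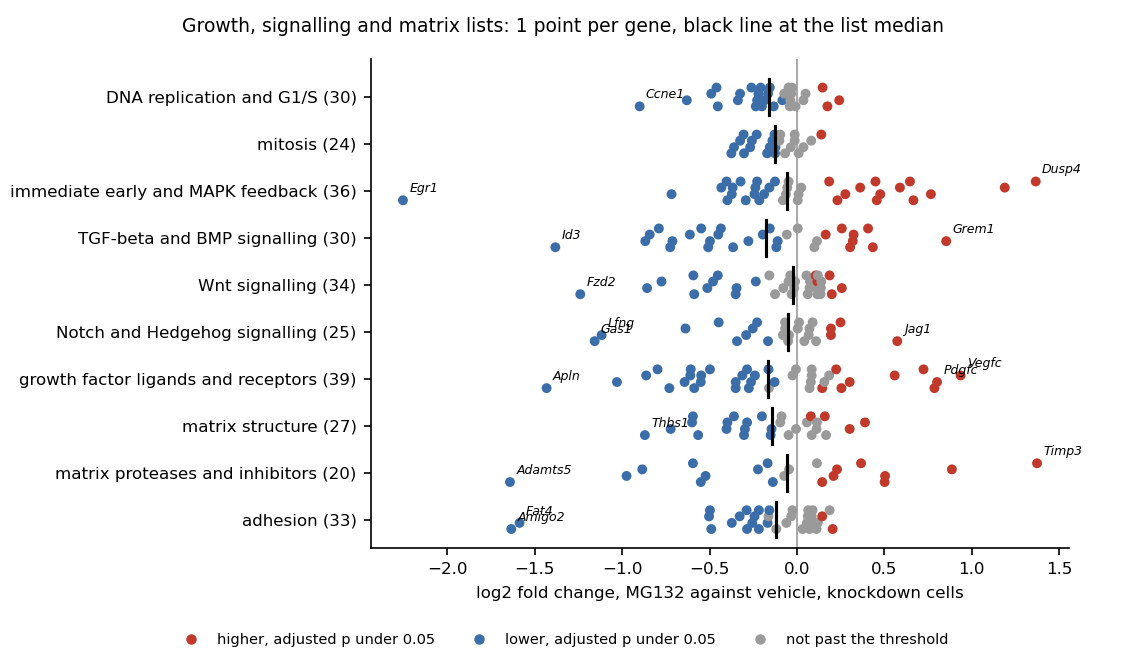
Points are genes of 10 growth, signalling and matrix lists, by log2 fold change with MG132 in knockdown cells on the x axis, red where higher, blue where lower, grey where not past the threshold, and the black line is the list median. The list medians lie between -0.18 and -0.02, and single genes reach -2.26 (Egr1) and 1.38 (Timp3).

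Inflammatory genes rose in part. Of 27 NF-kappaB factors and cytokines 15 rose and 4 fell (13 and 2 under all scalings). The chemokine Cxcl10 read 9.82, 9.98, 9.89 and 10.10 with vehicle and 11.69, 11.49, 11.59 and 11.44 with MG132, apart on all arrays, 3.04-fold higher (1.61 ± 0.07), Ccl5 rose by 1.33 ± 0.05, and Ptgs2, cyclooxygenase 2, by 1.22 ± 0.04 (11.89 to 12.08 with vehicle, 13.15 to 13.31 with MG132). Cxcl12, a homeostatic chemokine of stromal cells, fell by 1.20 (10.18 to 10.45 with vehicle, 9.07 to 9.28 with MG132). The inhibitor Nfkbia rose by 0.21 ± 0.04 and the subunit Relb by 0.55 ± 0.06, and Il6 was at -0.04 ± 0.06 and did not pass. Interferon-stimulated genes rose in 6 of 19 (31.6%) and fell in 3 (15.8%), against 16.4% and 24.3% of all genes (5 and 1 under all scalings). Rsad2 (viperin) read 7.25, 7.18, 7.20 and 7.29 with vehicle and 9.34, 9.45, 9.12 and 9 with MG132, a 3.99-fold rise, Oasl1 rose by 1.11 ± 0.06 and Ifit1 by 0.76 ± 0.09, and Usp18, the brake on interferon receptor signalling, fell by 0.37. Ifi203, of the interferon-inducible p200 family, read 7.88, 8.52, 8.46 and 8.51 with vehicle and 10.28, 10.07, 10.11 and 10.15 with MG132 and rose by 1.81 ± 0.11, but members of this family are near copies, so its level is uncertain.

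Death and survival genes fell in 11 of 32 (34.4%) and rose in 7 (21.9%), against 24.3% and 16.4% of all genes (8 and 7 under all scalings). Bcl2, the survival factor, read 10.54, 10.51, 10.63 and 10.60 with vehicle and 9.36, 9.44, 9.35 and 9.45 with MG132, down by 1.17 with no overlap (limma adjusted p = 7.76e-13), Bcl2l1 (BCL-XL) fell by 0.36, and Mcl1 was at 0.03 ± 0.03 and did not pass. Casp4, an inflammatory caspase, rose by 1.48 ± 0.09 (8.25 to 8.48 with vehicle, 9.75 to 9.99 with MG132), the necroptosis effector Mlkl by 0.67 ± 0.04 and the BH3-only gene Bcl2l11 (BIM) by 0.43 ± 0.06. The caspase inhibitors Xiap and Cflar fell by 0.65 and 0.54.

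Metabolic lists were mixed. Sterol and fatty acid genes rose in 15 of 29 and fell in 5 (11 and 4 under all scalings). Insig1, which retains the sterol sensor, rose by 0.77 ± 0.06 and the demethylase Cyp51 by 0.73 ± 0.05, whereas Dhcr7, the last enzyme of cholesterol synthesis, read 9.89, 9.81, 9.90 and 9.97 with vehicle and 9.03, 9.15, 9.17 and 9.13 with MG132 and fell by 0.77. In the glycolysis and hypoxia list 8 of 24 rose and 9 fell (4 and 7): Ndrg1 rose by 1.12 ± 0.04 and Ddit4, an inhibitor of mTORC1, by 0.68 ± 0.05, while Pdk1, the kinase that shuts pyruvate dehydrogenase, fell by 1.04 and Bnip3 by 0.57. Respiratory chain genes fell in 22 of 42 and rose in 2, by small steps that held under all scalings in 7 and 0, such as Ndufb3 (-0.33 ± 0.04). The mitochondrial protease Lonp1 rose by 0.66 ± 0.04 and Grpel1, a mitochondrial co-chaperone, by 0.42 ± 0.05, against Oma1 (-0.66 ± 0.07) and Spg7 (-0.43 ± 0.05), also proteases, which fell. Ribosome biogenesis genes rose in 17 of 28 and fell in 3 (11 and 1 under all scalings), led by Nop14 (0.53 ± 0.04), and translation initiation genes in 9 of 20 with 2 lower (5 and 1), among them the translation repressor Eif4ebp1 (0.34 ± 0.04).

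Clock genes moved in both directions. Of 17 measured, 6 rose (35.3%) and 4 fell (23.5%), against 16.4% and 24.3% of all genes (5 and 4 under all scalings). The share that fell was thus near that of all genes. Ciart, a repressor of the clock, read 10.07, 10.03, 10.11 and 10.11 with vehicle and 11.65, 11.54, 11.52 and 11.44 with MG132, 2.75-fold higher with no overlap (1.46 ± 0.05, limma adjusted p = 2.11e-12). The repressors Cry1 and Cry2 and the factor Nfil3 rose by 0.86 ± 0.04, 0.84 ± 0.05 and 0.67 ± 0.04. Nr1d1 (REV-ERB alpha), Per3, Dbp and Arntl (BMAL1) fell by 0.86, 0.61, 0.62 and 0.28. Only the 8 h time was sampled, with its own vehicle group.

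Among the 15 highest and 15 lowest changes that the rule names, the rises outside the lists were Prl2c5, a proliferin-family hormone gene (2.19 ± 0.09), Serpinb9e (1.82 ± 0.13), Ifi203 (1.81 ± 0.11), the secreted carbonic anhydrase Car6 (1.74 ± 0.09) and the RNA-binding Mex3b (1.54 ± 0.04). Prl2c5 and Serpinb9e belong to families of near copies and are uncertain. The falls outside the lists were Tmem119, Sh2d1b1 (-1.58 ± 0.11), Rab7b (-1.49 ± 0.10), the GTPase-activating gene Arhgap18 (-1.40 ± 0.07), Lect2 (-1.40 ± 0.05), Cd300lb (-1.39 ± 0.05), the transcription factor Osr1 (-1.37 ± 0.04), the protocadherin Pcdh18 (-1.37 ± 0.04) and the ETS factor Etv1 (-1.36 ± 0.07). On the other Etv1 probe set the difference was -0.76. Tmem119, which encodes a membrane protein of bone-forming cells and microglia, read 10.09, 10.49, 10.48 and 10.41 with vehicle and 8.40, 8.58, 8.65 and 8.56 with MG132, a fall of 1.82 with no overlap.

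**Figure D4:**
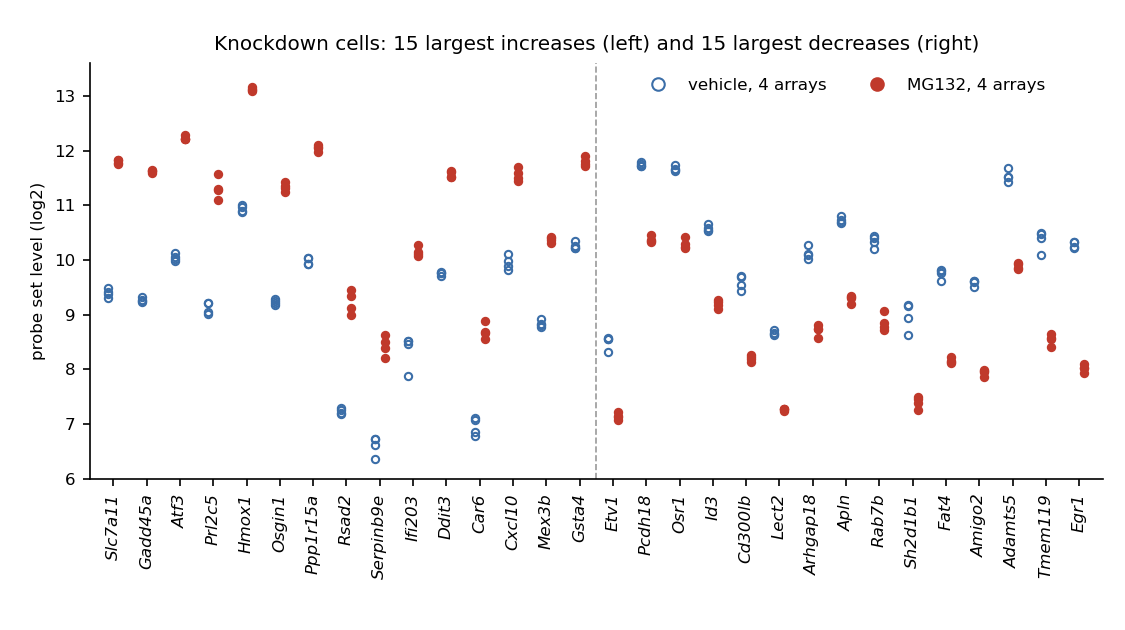
Log2 probe set levels (y axis) of the 15 largest increases (left of the dashed line) and 15 largest decreases (right) that the naming rule gives, with 4 vehicle arrays (open blue) and 4 MG132 arrays (filled red) of knockdown cells. The rule took only genes whose groups do not overlap. The spread within a group is widest in Ifi203 (vehicle SD 0.31) and Sh2d1b1 (0.26).

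The response was then set against that of control cells by testing the difference of the responses, knockdown minus control. It passed in 2901 genes (limma adjusted p under 0.05), 887 higher (4.45%) and 2014 lower (10.1%) in knockdown cells. With centring on the median of the named genes the split was 1242 and 1011, with centring on every probe set 686 and 1695, and with quantile normalization again 1343 and 1562. Because all 4 groups enter this test, the vehicle levels of the lines are given with it for part of the genes.

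Genes that fell by more in control than in knockdown cells make up most of the highest differences. Cldn1, a tight junction protein, changed by 0.09 in knockdown and -1.92 in control cells (difference 2.01 ± 0.18), Edn1, the endothelin precursor, by -0.29 and -2.16, Mycn by 0.10 and -1.74, the potassium channel subunit Kcnf1 by -0.15 and -1.42, and Wnt7b by 0.07 and -1.06. Their vehicle means were lower in knockdown than in control cells: 6.17 against 11.13 for Cldn1, 9.15 against 10.25 for Edn1, 7.5 against 9.53 for Mycn, 6.92 against 8.98 for Kcnf1 and 7.69 against 9.08 for Wnt7b. In knockdown cells Cldn1 lay below the mean of the macrophage markers with vehicle (6.72 to 6.91), and Kcnf1 lay close to it. A fall from so dim a level can be compressed, so the small changes of both in knockdown cells are uncertain. Rsad2, Ifi203 and Dusp4 instead rose in knockdown cells by more than in control cells, where the changes were 0.48, 0.02 and 0.21.

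The lowest differences were of both kinds. Tmem119, Aspn, Pxylp1, Sh2d1b1 and Arrdc3 fell in knockdown cells, by 1.82, 1.34, 1.11, 1.58 and 1.21, and changed by -0.17, 0.06, 0.24, -0.32 and -0.05 in control cells. For Tmem119 the vehicle mean was 10.37 in knockdown and 7.90 in control cells, for Arrdc3 9.47 and 8.98, and for Aspn 6.74 and 4.82. Control Aspn levels (4.82 with vehicle, 4.88 with MG132) were too low to show that it was expressed there. Its lack of change in control cells is therefore uncertain. Hspa1a on its own probe set, the chemokine Ccl2 and Nqo1 rose in both lines, but less in knockdown cells, by 0.84 against 3.29, 0.55 against 2.17 and 0.49 against 1.74. Ccl2 and Nqo1 stood higher with vehicle in knockdown cells (12.46 against 9.28, and 11.57 against 8.20), and Hspa1a lower (8.12 against 9.06). On the probe set shared by Hspa1a and Hspa1b the rises were 2.29 and 2.46, so the large gap of Hspa1a was not seen there.

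**Figure D5:**
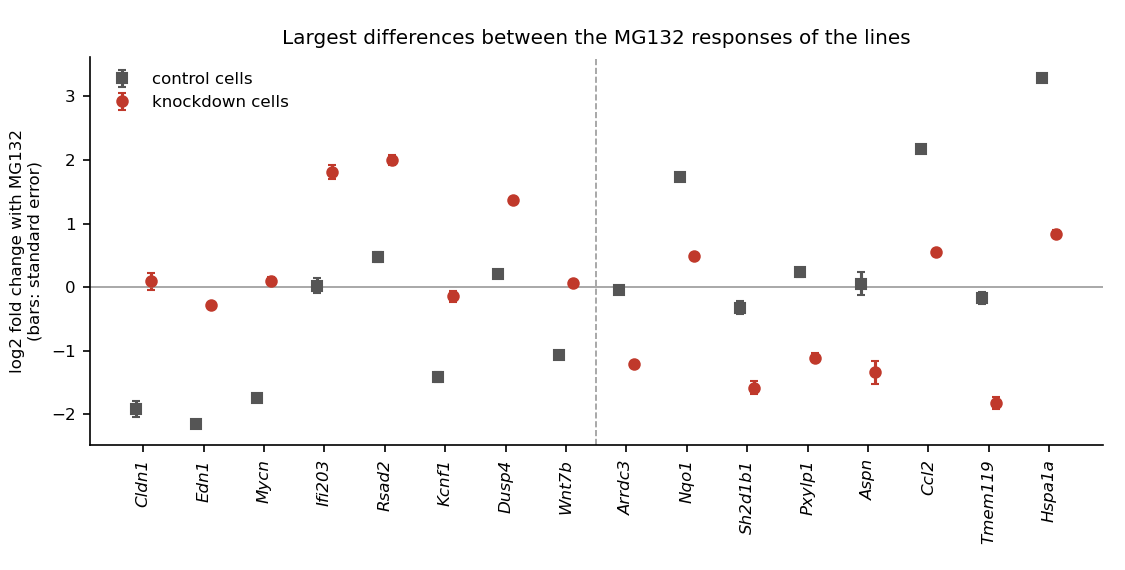
The log2 fold change with MG132 (y axis) in control cells (grey squares) and knockdown cells (red circles) for the 8 highest (left of the dashed line) and 8 lowest differences between the responses, with bars for the limma standard error. The knockdown points of Cldn1, Mycn and Wnt7b lie near 0 where control cells fell, and those of Tmem119 and Aspn lie below -1 where control cells are near 0. Control levels of Aspn were too low (4.82 with vehicle) to show expression. Knockdown levels of Cldn1 were dim too (6.17 with vehicle), so a fall there can be compressed.

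Over all 19938 genes this test was passed by 4.45% higher and 10.1% lower, and 654 and 883 genes held under all scalings. Of the 38 lists, immediate early and MAPK feedback genes had the largest share of members past the test of the difference: 22 of 36 were higher and 4 lower in knockdown cells (21 and 2 under all scalings). Besides Dusp4, Ier3 differed by 0.54 ± 0.07 and Ier5 by 0.65 ± 0.06, and Dusp6, Spry2 and Etv5, which fell in both lines, fell less in knockdown cells (differences 0.60 ± 0.07, 0.61 ± 0.06 and 0.75 ± 0.08); Egr1 fell more (-0.84 ± 0.07). Sterol and fatty acid genes were higher in 13 of 29 and lower in 1 (11 and 1), with Insig1 at 0.49 ± 0.08. Ribosome biogenesis was higher in 10 of 28 and lower in 0 (6 higher under all scalings; limma, 0 lower at an unadjusted p under 0.05), and YAP targets and contractile genes higher in 8 of 24 (7). Mitosis genes were lower in 11 of 24, which held under all scalings in 3, NF-kappaB genes lower in 12 of 27 and higher in 4 (9 and 3), stress regulators lower in 6 of 21 and higher in 1 (4 and 1), amino acid genes lower in 7 of 23 and higher in 3 (6 and 3), and heat shock chaperones lower in 7 of 24 and higher in 1 (6 and 0). Among the stress regulators Ddit3 and Trib3 rose less in knockdown cells (-0.57 ± 0.06 and -0.37 ± 0.05) and Ppp1r15a rose more (0.36 ± 0.06). In the proteasome lists the difference passed in 3 of 31 subunits, all higher, of which 1 held under all scalings. Members whose response was larger in knockdown cells included Eda2r (1.31 against 0.29), Ptgs2 (1.22 against 0.28), Casp4 (1.48 against 0.77), Id3 (-1.38 against -0.53), Igf1 (-0.86 against 0.02), Gas6 (-0.64 against 0.15), Vegfc (0.94 against 0.23), Pdgfc (0.80 against -0.15) and Xbp1 (0.47 against 0.04), all past the test of the difference. Other members rose less in knockdown cells, among them Cxcl10 (1.61 against 2.55), Ccl5 (1.33 against 1.74), Aldh1l2 (0.50 against 1.35) and Blvrb (0.92 against 1.30). These passed the test as well, and the members of both kinds were picked after their values were seen.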

How the data were processed

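Total RNA of 16 plates was measured on mouse whole-transcript expression arrays, 1 array per plate, and the 8 arrays of knockdown cells are the subject here. The authors deposited log2 probe set levels rounded to 2 decimals, with RMA and Partek named in the submitters' processing notes; neither versions nor settings are stated there. Array medians (7.71 to 7.82) were nearly equal, so the arrays appear scaled to each other, which would hide a shift common to most genes. The number of arrays limits the precision.

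Probe sets were named through the platform annotation. Of 35556, 21789 carried 1 symbol, of which 21698 matched RefSeq (GRCm38.p6) by gene ID, 1621 carried several and 12146 were not listed. Per gene the probe set with the highest mean over 16 arrays was kept, which left 19938 genes. One linear model with 4 group means and all 16 arrays was fitted in R 4.3.3 by limma 3.58.1 (functions lmFit and eBayes, two-sided tests, no filter, no block, 12 residual and 4.12 prior degrees of freedom), with Benjamini-Hochberg adjustment over all genes and a threshold of 0.05. On a simulated table with 200 of 19938 genes changed the fit recovered 74% at 1.25-fold and 96% at 1.5-fold in the knockdown comparison. Its noise was independent between genes and arrays, whereas in the data 1 axis held 37.77% of the within-group variance. Far more genes were called in the data as well, so recovery there may differ. Within-group correlations of the knockdown arrays were 0.99759 to 0.99924.

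Named genes are the 15 highest and 15 lowest changes without overlap of the arrays (gene models, clones and small RNAs skipped), from every list up to 3 called members by smallest p and 1 opposite to most, a panel of 13 stress genes, and the 8 highest and 8 lowest differences of the responses. Further list members, and the differences given outside those 16, were named after their values were seen. The members and lists were chosen with earlier results of these data known. Lack of overlap was a condition for the 15 highest and 15 lowest changes, so it is no separate result for them. Promoter windows came from RefSeq for 15614 tested genes. Python 3.11.15 and matplotlib 3.10.9 drew the figures.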

Additional observations from a re-analysis of the deposited data

Results flagged for a closer look

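Of 478 groups of 4 knockdown arrays of the named genes, 23 held an array far from the other 3 by Dixon's ratio at its critical value, where chance flags about 1 in 20. Knockdown vehicle 1 was the array in Asns (13.3, others 13.24 to 13.25), Cldn1 (6.34, others 6.09 to 6.13), Etv1 (8.32, others 8.55 to 8.58), Grpel1 (11.62, others 11.46 to 11.48), Ifi203 (7.88, others 8.46 to 8.52), Psmd11 (11.91, others 11.99 to 12) and Vegfc (8.48, others 8.64 to 8.67). Other vehicle arrays stood apart in Cyp51 (10.82), Mars1 (11.82), Nop14 (11.3), Oasl1 (9.39) and Ufd1 (11.48). MG132 arrays stood apart in Asns (13.51), Atf3 (12.29), Col1a2 (10.94), Cry2 (10.11), Dnajc3 (11.64), Fzd8 (8.94), Mnt (9.54), Pdgfra (9.21), Pfdn5 (11.28), Psma7 (11.78) and Vim (14.16). In most of these the other 3 arrays agree to 0.03 or less, and values rounded to 2 decimals make a small gap count.

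The test of the difference of the responses, knockdown minus control, passed in 134 of the 239 named genes, and the differences of 35 are given here. The differences were 2.01 for Cldn1, 1.87 for Edn1, 1.83 for Mycn, 1.27 for Kcnf1, 1.13 for Wnt7b, 1.52 for Rsad2, 1.79 for Ifi203 and 1.16 for Dusp4. They were -1.65 for Tmem119, -1.40 for Aspn, -1.34 for Pxylp1, -1.26 for Sh2d1b1, -1.16 for Arrdc3, -2.45 for Hspa1a, -1.62 for Ccl2 and -1.25 for Nqo1. Among feedback and stress genes they were 0.54 for Ier3, 0.65 for Ier5, 0.60 for Dusp6, 0.61 for Spry2, 0.75 for Etv5, -0.84 for Egr1, 0.49 for Insig1, -0.57 for Ddit3, -0.37 for Trib3, 0.36 for Ppp1r15a and 0.43 for Xbp1. For death genes and secreted factors they were 1.02 for Eda2r, 0.94 for Ptgs2, 0.70 for Casp4, -0.85 for Id3, -0.88 for Igf1, -0.79 for Gas6, 0.71 for Vegfc and 0.95 for Pdgfc. The test was two-sided in limma over all genes, and the causes were not tested.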

How the results depend on the processing

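The count of genes higher with MG132 in knockdown cells (3276) moved by over 1.5 times with centring on the named genes (7140), with centring on every probe set (1833, added after seeing the data), with array weights (5425) and with a 1.5-fold minimum (213), and the count lower (4848) with the 1.5-fold minimum (669). The difference of the responses (2901) moved with the 1.5-fold minimum (206). Leaving out 1 of the 16 arrays gave 2696 to 4504 higher, 4416 to 4973 lower and 2325 to 3387 differences, and without knockdown vehicle 1 and knockdown MG132 2, also added, there were 3481 higher and 4629 lower. Without knockdown vehicle 1 no pathway list count moved by more than 3. Knockdown arrays with the same replicate number had correlations of deviations of 0.182, -0.04, 0.164 and 0.17, within the -0.279 to 0.329 of unequal numbers. So few pairs cannot show whether the replicate numbers pair the samples. With the number as a replicate block 3335 genes were higher, 4827 lower and 2668 differed, and of the called named genes only Acta2 lost its call.

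Of the 221 called named genes 0 changed direction, and beside the 1.5-fold minimum 4 lost the call: Acta2, Edn1 (quantile normalization again), Hspa8 (centring on every probe set) and Lum. Thy1, not called, was called at 0.12 with quantile normalization again. Besides Atf5, other uncalled genes also gained a call. Psat1 did so under several alternatives, among them centring on the named genes (0.14) and array weights (0.08). Centring on the named genes also gave calls for Nfe2l2 (0.13), Mycn (0.15) and Wnt7b (0.13). Centring on every probe set gave them for Vim (-0.10) and Kcnf1 (-0.205), and leaving out knockdown MG132 2 for Fos (-0.14). None of the 35 differences lost its call beside that minimum. No detection calls were used, and changes of dim or very bright probe sets can be compressed.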

Other observations

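Zinc finger genes with a Zfp symbol and a number, noticed in the results and not tested as a group, were lower in 134 and higher in 48 of 341 (39.3% lower, against 24.3% of all genes), with a median log2 fold change of -0.08 in knockdown and -0.02 in control cells. Of these, 22 fell by 1.5-fold or more. The counts were 103 lower and 79 higher with quantile normalization again, 110 and 70 with centring on the named genes, 153 and 34 with centring on every probe set, and 140 and 49 without knockdown vehicle 1.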
